A study of Mus musculus with 6 samples.

Results

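Killer cell lectin-like receptor genes were measured in CD8+ T cells primed with IL-12 or with IL-2 and in naive CD8+ T cells. The 8 genes, Klrg1, Klrd1, Klrc1, Klrc2, Klre1, Klrk1, Klrb1c and Klrb1f, were a part of the Klr family outside the Ly49 (Klra) genes. The list was chosen with earlier results of these data known, out of 19938 named genes on the array. Each had a single probe set. Total RNA of 6 samples was hybridised to Affymetrix arrays, 1 array per sample and 2 arrays per group. All cells came from spleens of female C57BL/6 mice that carry the Pmel-1 transgenic T cell receptor, which recognises gp100, an antigen of melanoma cells, and the age of the mice was not given in the sources used here. IL-12 primed cells had 4 days with gp100 and 6 days with IL-12, and IL-2 primed cells had 4 days with gp100 and 6 days with IL-2. Naive cells were CD8+ Thy1.1+ cells sorted from fresh spleen. For the primed cells the labels mention no sort. The stated purpose of setting the primed groups side by side was to find genes or pathways needed for activity against tumours. Nothing in the labels ties the arrays of a group to separate mice or cultures, so p-values measure the spread between these arrays, which may be technical.

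Killer cell lectin-like receptors are type II membrane proteins that natural killer cells and subsets of CD8+ T cells use to read ligands on other cells. Some, such as KLRG1 and the CD94/NKG2A pair, carry inhibitory motifs that recruit phosphatases, and others, such as NKG2D, signal through adaptor proteins to activate or costimulate the cell. On CD8+ T cells they are known as markers of antigen experience, and KLRG1 in particular marks short-lived effector cells in mice.

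Of the 8 genes, 6 were bright enough to be tested, that is, at least 2 of the 6 arrays lay above the median of all values on the arrays, a log2 RMA value of 6.83. Klrb1, Klrb1a, Klrb1b, Klrc3, Klrg2, Klrh1, Klri1 and Klri2, outside the 8 and outside the Ly49 genes, were too dim to be tested. With IL-12 in place of IL-2, Klrg1 and Klrb1f were higher, Klrd1 and Klrc1 were lower, and Klrk1 and Klrc2 did not pass the test. A gene passed when its limma p-value, adjusted by the Benjamini-Hochberg method over all 11147 tested genes, was below 0.05. In that comparison 20.8% of all tested genes passed, 9.82% higher and 11.0% lower with IL-12. With IL-2 relative to the naive state, Klrk1, Klrb1f, Klrc1 and Klrd1 were higher and Klrg1 was lower, where 45.7% of all tested genes passed (25.8% higher, 19.9% lower). With IL-12 relative to the naive state, Klrb1f, Klrk1 and Klrg1 were higher and Klrd1 was lower, where 57.9% passed (31.2% higher, 26.7% lower). Klrg1 entered the test only through its IL-12 arrays, so these counts over the tested genes are given as a description. Single arrays of the compared groups did not overlap for 7 of the 8 receptors between IL-12 and IL-2, 7 between IL-2 and naive and 6 between IL-12 and naive cells, beside 69.5%, 73.9% and 79.2% of all tested genes. These counts include Klre1 and Klrb1c, which did not overlap in any comparison but were too dim to be tested. The shares are over tested genes alone. The comparisons share their arrays and are therefore not independent of each other.

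**Figure D1:**
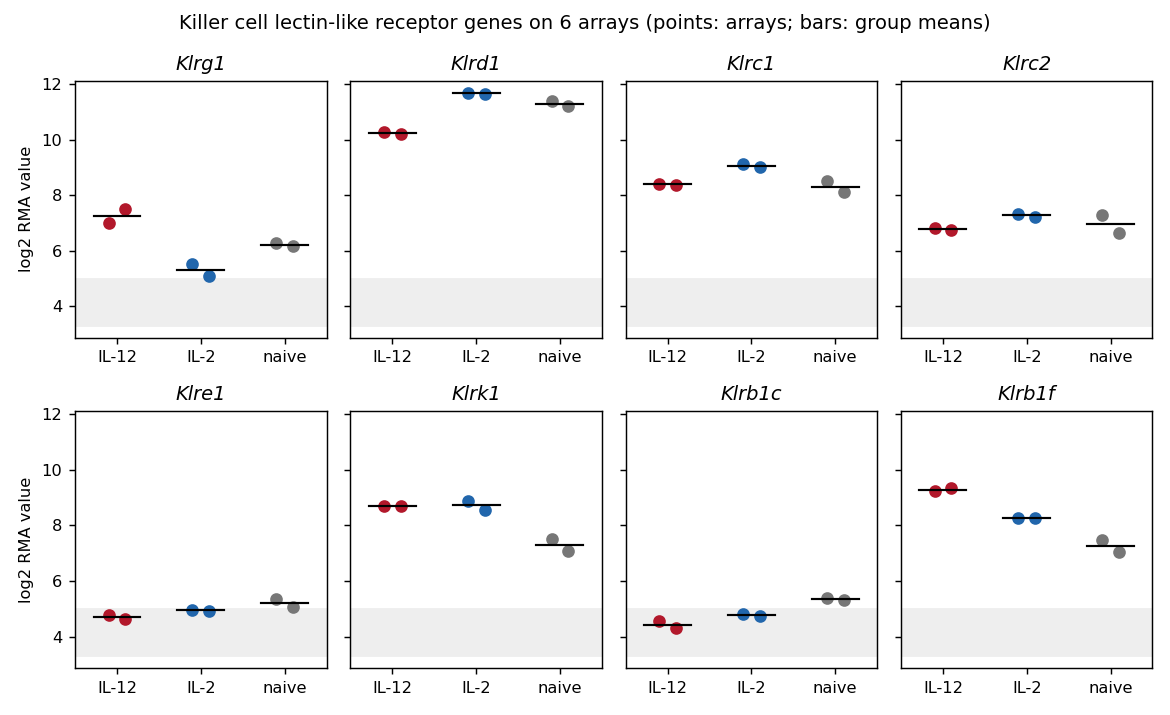
Log2 RMA values (vertical axis) of the 8 receptor genes on each array of IL-12 primed, IL-2 primed and naive cells, with points for arrays and bars for group means. The grey band spans the Y-linked readings, from 3.29 to 5.0. Klrg1 was highest and Klrd1 lowest in IL-12 primed cells, Klrk1 was high in both primed groups, and Klre1 and Klrb1c lay in or just above the band.

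The array values are log2 values, on which a difference of 1 is a 2-fold change in signal, and levels of different genes cannot be set against each other. Y-linked genes, which female cells lack, gave a measure of the signal without a target: 3 such genes read between 3.29 and 5.0 on single arrays. The 8 genes listed for CD8 T cell identity include Cd8a and Cd3e. They averaged 12.07 and 12.03 with IL-12, 12.44 and 12.47 with IL-2, and 12.37 and 12.50 in naive cells. These means do not measure purity. B cell and myeloid markers also read above the Y-linked genes in naive cells, such as Lyz2 at 9.31 and 9.35. In bulk RNA, fewer cells that express a gene and less of its RNA per cell cannot be told apart.

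Klrg1 (probe set 10547590) encodes an inhibitory receptor for cadherins. It read 6.98 and 7.49 with IL-12, 5.51 and 5.09 on the IL-2 arrays, and 6.26 and 6.18 on the naive arrays. The groups did not overlap, and their order from high to low was IL-12, naive, IL-2. The log2 fold change between IL-12 and IL-2 cells was 1.94 ± 0.19 (SE of the fit, as for all differences; n = 2 per group), a 3.84-fold difference (limma adjusted p = 0.000247). Against naive cells Klrg1 rose 2.02-fold with IL-12 (limma adjusted p = 0.00161) and fell by 0.92 ± 0.19 on the log2 scale with IL-2 (limma adjusted p = 0.00394). The lower IL-2 reading of 5.09 stood beside a highest Y-linked reading of 5.0, so the IL-2 arrays were close to the signal without a target. With no filter on dim genes, the IL-12 against IL-2 difference had a limma adjusted p of 0.000204.

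Klrd1, Klrc1 and Klrc2 encode the chains of the CD94/NKG2 receptors, in which CD94 (Klrd1) pairs with inhibitory NKG2A (Klrc1) or activating NKG2C (Klrc2) and binds the nonclassical MHC molecule Qa-1. Klrd1 (probe set 10542214) read 10.29 and 10.20 with IL-12, 11.69 and 11.64 on the IL-2 arrays, and 11.38 and 11.20 on the naive arrays. Its order was IL-2, naive, IL-12, the reverse of that of Klrg1, with no overlap between groups. It was 2.67-fold lower in IL-12 than in IL-2 cells (-1.42 ± 0.11 on the log2 scale; limma adjusted p = 7.62e-05) and 2.06-fold lower than in naive cells (limma adjusted p = 5.55e-05). The difference between IL-2 and naive cells was 0.37 ± 0.11 on the log2 scale (limma adjusted p = 0.0204). Leaving out naive replicate 2 (0.0508), the first IL-2 array (0.127) or the second (0.0828) ended that call, as did quantile normalization (0.0627).

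Klrc1 (probe set 10548409) read 8.42 and 8.36 with IL-12, 9.14 and 8.998 on the IL-2 arrays, and 8.50 and 8.10 on the naive arrays. Both IL-2 arrays lay above all others, and the IL-12 arrays fell between the 2 naive ones. Klrc1 was 1.60-fold lower in IL-12 than in IL-2 cells (-0.68 ± 0.14 on the log2 scale; limma adjusted p = 0.0111). It no longer passed when the first (0.0899) or second (0.0583) IL-2 array or IL-12 replicate 2 (0.0717) was left out. IL-2 cells exceeded naive cells 1.70-fold (limma adjusted p = 0.00225). Between IL-12 and naive cells the difference was 0.09 with a 95% interval from -0.23 to 0.41 (limma adjusted p = 0.601).

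Klrc2 (probe set 10548401) read 6.81 and 6.73 with IL-12, 7.33 and 7.23 on the IL-2 arrays, and 7.30 and 6.65 on the naive arrays. Both IL-12 arrays and the lower IL-2 array lay between the naive arrays. The difference between IL-12 and IL-2 cells was -0.51 with a 95% interval from -0.93 to -0.08, and it did not pass over all genes (limma adjusted p = 0.0872). It passed when the spread was estimated from the primed arrays alone (limma adjusted p = 0.00572) and with the replicate block (0.0423). Neither comparison with naive cells passed (limma adjusted p = 0.384 for IL-12 and 0.212 for IL-2). Against a single naive array the log2 differences were 0.12 for IL-12 and 0.63 for IL-2 without naive replicate 1, and -0.53 for IL-12 and -0.019 for IL-2 without naive replicate 2. No p is given for these, since the spread of the naive arrays is then not measured. The same limit holds for every p given elsewhere with an array of a compared group left out. Klrc1, Klrc2 and Klrc3 are close relatives in sequence, and how far their probes can tell the transcripts apart was not tested.

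Klrk1 (probe set 10548345) encodes NKG2D, an activating receptor for stress-induced ligands such as the RAE-1 and H60 proteins. It read 8.69 and 8.70 with IL-12, 8.89 and 8.57 on the IL-2 arrays, and 7.52 and 7.07 on the naive arrays. All 4 primed arrays lay above both naive arrays, and the primed groups overlapped. Klrk1 was 2.64-fold higher in IL-12 than in naive cells (1.40 ± 0.16 on the log2 scale; limma adjusted p = 0.000115) and IL-2 cells exceeded naive cells 2.70-fold (limma adjusted p = 0.000165). Between IL-12 and IL-2 cells the difference was -0.04 with a 95% interval from -0.41 to 0.33 (limma adjusted p = 0.899), and its sign turned with quantile normalization (0.02) and without IL-2 replicate 1 (0.12).

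Klrb1f and Klrb1c belong to the NKR-P1 group, whose ligands include proteins of the Clec2 family encoded next to them. Klrb1f (probe set 10542140) encodes NKR-P1F. It read 9.22 and 9.34 with IL-12, 8.27 and 8.26 on the IL-2 arrays, and 7.48 and 7.03 on the naive arrays. The groups were separate, and their order from high to low was IL-12, IL-2, naive. Klrb1f was 2.02-fold higher in IL-12 than in IL-2 cells (1.01 ± 0.15 on the log2 scale; limma adjusted p = 0.00216). It was 4.07-fold higher in IL-12 than in naive cells (limma adjusted p = 6.91e-06) and IL-2 cells exceeded naive cells 2.01-fold (limma adjusted p = 0.000701). All 3 calls held under each of 14 alternative settings, with adjusted p up to 0.0265, although a stricter filter among them admitted Klrb1f through its IL-12 arrays alone.

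Klrb1c (probe set 10548307) encodes NK1.1, the antigen by which natural killer cells are recognised in C57BL/6 mice. It read 4.55 and 4.31 with IL-12, 4.79 and 4.73 on the IL-2 arrays, and 5.37 and 5.30 on the naive arrays. The primed arrays lay within the range of the Y-linked genes and the naive arrays just above it. Klre1 (probe set 10542205), a receptor gene of natural killer cells, read 4.76 and 4.62 with IL-12, 4.97 and 4.93 on the IL-2 arrays, and 5.33 and 5.07 on the naive arrays. Neither was bright enough to be tested. In a fit of all 19938 genes without the filter, in which 35.1% of genes passed between IL-12 and naive cells, Klrb1c was lower in IL-12 than in naive cells by 0.91 on the log2 scale (-0.91, limma adjusted p = 0.000186) and Klre1 by 0.51 (-0.51, limma adjusted p = 0.00783). The primed readings were at the level of the Y-linked genes and the naive readings just above it, so the size of these differences cannot be read from the values. Whether either gene was expressed in any group was not tested, and these log2 differences are given as a description only. In the same fit Klrb1c also differed between IL-2 and naive cells (limma adjusted p = 0.00452), where 26.4% of genes passed, and Klre1 did not pass (limma adjusted p = 0.163).

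**Figure D2:**
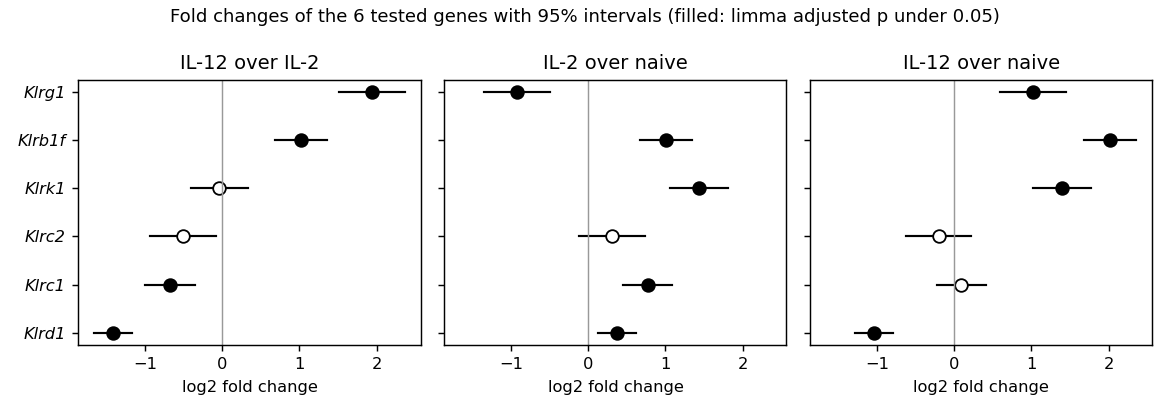
Log2 fold changes (horizontal axis) of the 6 tested receptor genes with 95% intervals from the limma fit, for IL-12 over IL-2, IL-2 over naive and IL-12 over naive cells, with filled points for limma adjusted p under 0.05. Klrg1 and Klrd1 lie on opposite sides of 0 in each comparison, and Klrk1 lies near 0 between the primed groups.

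All 8 genes lie on chromosome 6 of the mouse assembly GRCm38.p6. Among protein-coding genes Klre1, Klrd1 and Klrk1 are direct neighbours, followed by Klrc3, Klrc2 and Klrc1, whereas Klrg1 is separated from the nearest other receptor of the 8, Klrb1c, by 112 protein-coding genes. Along this row, Klrd1 and Klrc1 were lower in IL-12 than in IL-2 cells, and Klrk1, which lies between them, differed by -0.04.

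RefSeq promoter windows of GRCm38.p6, from 250 bases before to 50 bases after an annotated start, matched 6 of the 8 genes. Klrg1 and Klrd1 had no window. The windows of 3 genes are printed because they stand for different patterns among the 6. Klrb1f was highest with IL-12 and lowest in naive cells, Klrk1 rose in both primed groups and Klrc1 was highest with IL-2. Capitals mark matches on either strand to TGTGGT, the core of the motif bound by RUNX factors, whose reverse complement is ACCACA, or to TTCNNNGAA, the GAS motif bound by STAT factors.
Klrb1f (chr6:129045651-129045950, plus strand): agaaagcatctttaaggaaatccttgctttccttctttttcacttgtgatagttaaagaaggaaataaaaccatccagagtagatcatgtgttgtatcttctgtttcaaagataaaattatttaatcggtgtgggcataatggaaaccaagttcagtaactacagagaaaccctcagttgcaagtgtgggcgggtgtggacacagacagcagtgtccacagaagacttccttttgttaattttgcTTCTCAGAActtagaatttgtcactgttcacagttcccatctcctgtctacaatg
Klrk1 (chr6:129623815-129624114, minus strand): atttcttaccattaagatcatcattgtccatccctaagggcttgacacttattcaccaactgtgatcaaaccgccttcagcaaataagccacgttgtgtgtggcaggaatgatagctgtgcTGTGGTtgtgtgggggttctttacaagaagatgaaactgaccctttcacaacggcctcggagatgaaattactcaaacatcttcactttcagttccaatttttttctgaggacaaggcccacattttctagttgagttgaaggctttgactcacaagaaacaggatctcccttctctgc
Klrc1 (chr6:129678924-129679223, minus strand): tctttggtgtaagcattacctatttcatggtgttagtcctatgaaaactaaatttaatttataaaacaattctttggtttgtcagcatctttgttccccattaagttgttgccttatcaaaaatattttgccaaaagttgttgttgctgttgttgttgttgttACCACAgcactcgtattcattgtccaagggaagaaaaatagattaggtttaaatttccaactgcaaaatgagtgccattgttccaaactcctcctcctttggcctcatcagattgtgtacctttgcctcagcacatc
The Klrb1f window held a GAS match from 5 bases before the start (position -5) and no RUNX core. The Klrk1 window held a RUNX core from position -129 and the Klrc1 window one from position -87, and neither held a GAS match. Over the 6 genes with a window, a RUNX core was found in 5 (all but Klrb1f), a GAS match in 1 (Klrb1f), and GTGTGA, a core of the T-box motif bound by T-bet and Eomes, in 1 (Klre1). Klre1 and Klrc2 had more than 1 window, and a match in any window of a gene was counted. Of all 32851 promoter windows of that length, 16.8% held the RUNX core, 8.30% the GAS motif and 14.5% the T-box core. These shares are per window, whereas the counts over the 6 are per gene. Matches of different motifs can overlap at their ends. The motifs were picked after the windows had been read, and a match is a description of letters, not a binding site.

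The receptors signal through adaptors, and the genes of these partners were examined as a list of 18, of which 17 were tested. Between IL-12 and IL-2 cells 3 rose, 3 fell and 11 did not pass, where 20.8% of all tested genes passed. The median log2 fold change was -0.11 beside 0.02 over all tested genes. Against naive cells 2 rose and 10 fell with IL-12, where 31.2% of all tested genes rose and 26.7% fell. With IL-2, 1 rose and 12 fell, where 25.8% of all tested genes rose and 19.9% fell. The myeloid gene Lyz2 and the B cell markers also read lower in both primed groups than in naive cells. Lyz2 averaged 5.74 in IL-12, 5.43 in IL-2 and 9.33 in naive cells. The part of such cells in these counts and in the Hcst values was not tested. Hcst encodes DAP10, the adaptor of NKG2D. It read 7.71 and 7.93 with IL-12, 8.40 and 8.55 on the IL-2 arrays, and 9.23 and 9.24 on the naive arrays. The 3 groups were separate and in the opposite order to Klrb1f, and unlike Klrk1, Hcst was lower in both primed groups than in naive cells. It fell by 0.66 ± 0.12 on the log2 scale with IL-12 relative to IL-2 (limma adjusted p = 0.00528; 0.0704 without IL-2 replicate 2) and by 1.41 with IL-12 relative to naive cells (limma adjusted p = 1.38e-05).

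Tyrobp, named after its values were seen, encodes DAP12, an adaptor of NKG2D in mice and of CD94/NKG2C. It read 7.36 and 6.95 with IL-12, 6.79 and 6.52 on the IL-2 arrays, and 8.97 and 9.07 on the naive arrays. It was lower in both primed groups, by 1.86 with IL-12 and by 2.37 with IL-2 (log2 fold changes -1.86 and -2.37, limma adjusted p = 1.49e-05 and 5.25e-06). Between the primed groups its difference of 0.50 ± 0.16 just missed the threshold (limma adjusted p = 0.0514), and it passed with the replicate block (0.0322). Myeloid cells also express Tyrobp, and their lysozyme gene Lyz2 fell with it, at 5.84 and 5.64 on the IL-12 arrays, 5.65 and 5.20 on the IL-2 arrays, and 9.31 and 9.35 on the naive arrays. The part of myeloid cells in the Tyrobp values was not tested.

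The signalling genes Plcg2 (phospholipase C gamma 2), Syk (a kinase recruited by DAP12) and Fyn (a Src family kinase) rose with IL-12 relative to IL-2. Plcg2 read 8.85 and 8.84 with IL-12, 7.19 and 7.27 on the IL-2 arrays, and 7.89 and 7.77 on the naive arrays, and it rose by 1.61 ± 0.10 (limma adjusted p = 2.82e-05). Its order of groups was that of Klrg1. Syk read 6.94 and 7.25 with IL-12, 6.38 and 6.46 with IL-2, and 7.87 and 7.65 in naive cells, and between the primed groups it rose by 0.68 ± 0.13 (limma adjusted p = 0.00902). It no longer passed when the first (0.0751) or second (0.0597) IL-2 array or IL-12 replicate 2 (0.0754) was left out. Fyn rose by 0.52 ± 0.10 (limma adjusted p = 0.00815). It no longer passed when the first (0.0539) or second (0.0937) IL-2 array or IL-12 replicate 1 (0.0656) was left out. B cells also express Plcg2 and Syk, and all 6 tested B cell markers rose with IL-12 relative to IL-2, beside 9.82% of all tested genes. The mean of the B cell list was 8.14 and 8.20 on the IL-12 arrays, 6.94 and 6.89 on the IL-2 arrays, and 9.13 and 9.14 on the naive arrays. The part of B cells in these values was not tested. Naive cells read lower than IL-12 cells for Plcg2 and higher for Syk. Plcg1, which encodes the related phospholipase C gamma 1, and Pik3r1, a regulatory subunit of phosphoinositide 3-kinase, were named after their values were seen. On the log2 scale Plcg1 fell by 0.58 (limma adjusted p = 0.0165) and Pik3r1 fell by 0.39 (limma adjusted p = 0.0301). Leaving out any 1 of the 4 primed arrays ended both calls (adjusted p up to 0.114 for Plcg1 and 0.181 for Pik3r1), and median centring ended that of Pik3r1 (0.0528). The phosphatase genes Ptpn6 and Inpp5d, whose products bind inhibitory receptors, did not pass between the primed groups.

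**Figure D3:**
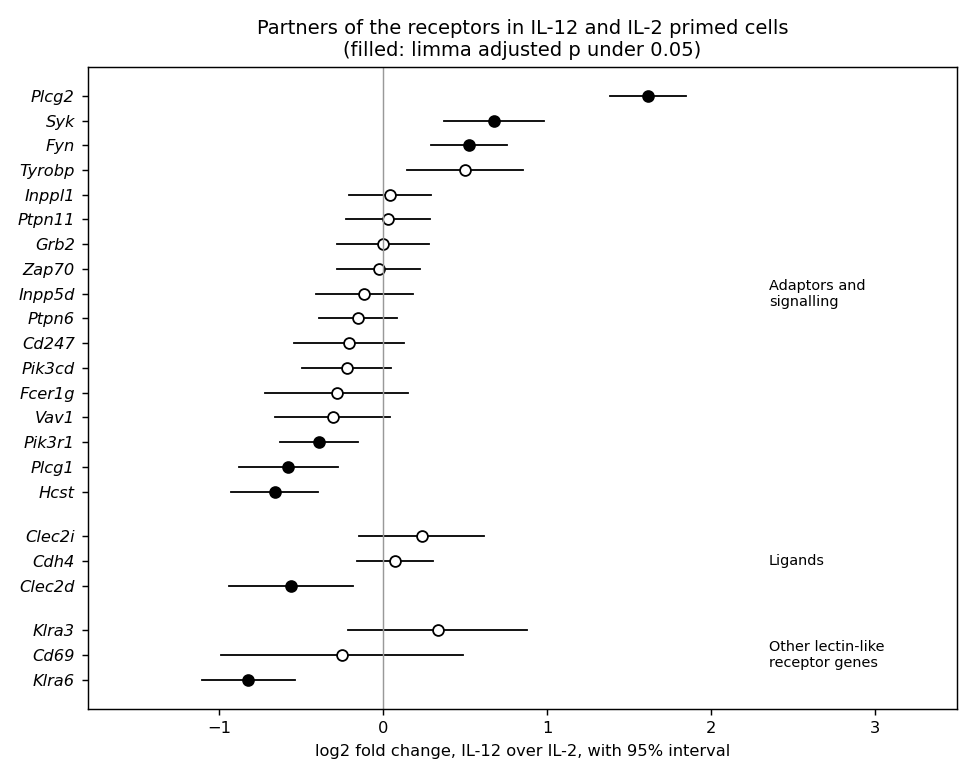
Log2 fold changes of IL-12 over IL-2 primed cells (horizontal axis) with 95% intervals for tested adaptors and signalling genes, ligands and other lectin-like receptor genes, with filled points for limma adjusted p under 0.05. Plcg2 lies farthest to the right at 1.61, and Klra6 farthest to the left at -0.82.

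Of 19 listed ligand genes, 10 had a probe set of their own and 3 were tested. Clec2d, which encodes the NKR-P1B ligand Clr-b, read 9.74 and 9.96 with IL-12, 10.27 and 10.56 on the IL-2 arrays, and 10.87 and 10.44 on the naive arrays. It was 0.56 lower on the log2 scale in IL-12 than in IL-2 cells (-0.56, limma adjusted p = 0.0452), a call lost without the filter (0.0583) and without any 1 of the 4 primed arrays (up to 0.281). Clec2i, which encodes Clr-g, a ligand of NKR-P1F, read 9.79 and 9.37 with IL-12, 9.38 and 9.31 on the IL-2 arrays, and 10.22 and 9.83 on the naive arrays, and the primed groups did not differ past the threshold (limma adjusted p = 0.36). The third, the cadherin gene Cdh4, did not pass in any comparison. Cdh1, which encodes E-cadherin, the best known ligand of KLRG1, read between 6.00 and 6.71 on all arrays and was not tested.

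Among 28 other lectin-like receptor genes listed, 15 had a probe set of their own and 3 of them were tested: Klra6, Klra3 and Cd69. Klra6, which encodes the inhibitory receptor Ly49F, read 6.00 and 6.18 with IL-12, 6.98 and 6.84 on the IL-2 arrays, and 8.18 and 8.41 on the naive arrays. The groups were separate, and the order was that of Hcst. Klra6 fell by 0.82 ± 0.12 on the log2 scale with IL-12 relative to IL-2 and by 2.20 ± 0.12 against naive cells (limma adjusted p = 0.00265 and 1.42e-06). Klra3 and the activation marker Cd69 did not pass between the primed groups (limma adjusted p = 0.36 and 0.627). The sign of the Cd69 difference of -0.25 turned when the first IL-2 array or the second IL-12 array was left out. Another 4 probe sets carried several Klra symbols and were not used.

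Transcription factors and receptors tied to effector and memory fate were examined beside the receptors, since T-bet and Zeb2 are known to act in the differentiation of KLRG1-positive cells. Of 18 tested, 6 rose and 8 fell with IL-12 relative to IL-2, and 4 did not pass, with a median log2 fold change of -0.12. Of all tested genes 9.82% rose and 11.0% fell in that comparison. In the IL-12 group Zeb2 read 7.89 and 8.25, beside 6.39 and 6.49 on the IL-2 arrays, and 6.99 and 6.93 on the naive arrays, the same order of groups as Klrg1. Tbx21, the T-bet gene, averaged 11.19 ± 0.03 in IL-12, 10.04 ± 0.05 in IL-2 and 9.11 ± 0.03 in naive cells (SD, n = 2 each), the same order as Klrb1f. Id3, an inhibitor of E proteins, read 7.19 and 7.20 with IL-12, 8.96 and 9.33 on the IL-2 arrays, and 8.01 and 8.25 on the naive arrays, the same order as Klrd1. These orders are set side by side as a description. Ccr7, the lymph node homing receptor gene, fell by 1.47 on the log2 scale with IL-12 relative to IL-2 (limma adjusted p = 9.62e-05).

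The genes most like Klrg1 over the 6 arrays, among 2091 tested genes whose group means spanned at least 1 on the log2 scale, were Ptpn4, Zeb2, Mettl1, Plcg2 and Trerf1, with Pearson correlations from 0.972 for Ptpn4 to 0.956 for Trerf1. The tyrosine phosphatase gene Ptpn4 averaged 9.85 in IL-12, 8.64 in IL-2 and 9.13 in naive cells. Those most like Klrd1 were Cln3, Spata6, Mxd4, Ccdc28a and Traf1, from 0.995 for Cln3 to 0.988 for Traf1. Mxd4, which encodes a MAX-binding repressor, averaged 8.59 in IL-12, 10.83 in IL-2 and 10.46 in naive cells. These correlations rest on 3 pairs of arrays and describe likeness only.

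Markers of other cells that could carry lectin-like receptors were followed on the same arrays. The 9 natural killer cell markers on the array averaged 6.69 and 6.76 on the IL-12 arrays, 6.75 and 6.53 on the IL-2 arrays, and 6.73 and 6.52 on the naive arrays, and these means overlapped between groups. Without Gzma, a granzyme gene that CD8+ T cells also express, the other 8 averaged 5.98 and 6.03 with IL-12, 6.28 and 6.15 with IL-2, and 6.48 and 6.44 in naive cells. Those means were separate, lowest with IL-12 and highest in naive cells, but most of the 8 genes did not have that order. Only Fcgr3 did. Itgb3, Itga2 and Cd244a were highest in IL-2 cells, and Ncr1, Styk1, Khdc1a and Klra8 were lowest there. Ncr1, which encodes the natural killer receptor NKp46, read between 5.31 and 6.00 on all arrays and was not tested. Of 4 tested markers of that list, 1 rose and 2 fell with IL-12 relative to IL-2. Their part in the receptor values was not tested. Of 7 tested myeloid and dendritic markers 2 rose with IL-12 relative to IL-2, and 5 fell with IL-2 relative to naive cells. Of these 7, 4 (Lyz2, Csf1r, Adgre1 and Mpeg1) entered the test through their naive arrays alone and Itgam through its IL-12 arrays alone, so the filter shaped these counts. None of the 2 tested CD4 markers (Zbtb7b and Foxp3) and none of the 2 tested markers of NKT and gamma delta T cells (Zbtb16 and Sox13) passed limma's test between IL-12 and IL-2 cells at an adjusted p of 0.05. Of 8 genes of CD8 T cell identity, 5 fell in that comparison, with a median of -0.39. The calls of Thy1, Cd8b1 and Cd3d were lost without any 1 of the 4 primed arrays. That of Cd2 was lost without the filter (limma adjusted p = 0.0624). Beside the counts of these lists, 9.82% of all tested genes rose and 11.0% fell between IL-12 and IL-2 cells. With IL-2 relative to naive cells 19.9% fell.

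**Figure D4:**
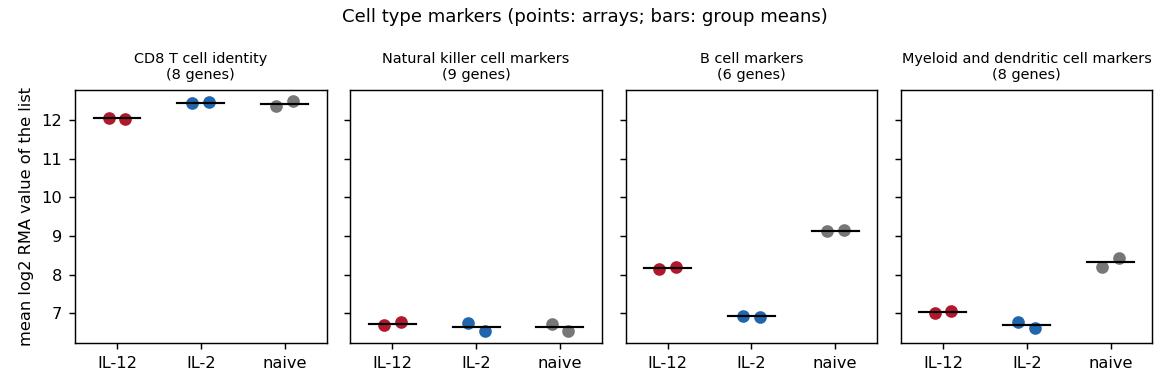
Mean log2 RMA value (vertical axis) of 4 marker lists on each array of IL-12 primed, IL-2 primed and naive cells, with points for arrays and bars for group means. The B cell list was lowest in IL-2 cells and highest in naive cells, and the natural killer list, Gzma included, overlapped between groups.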

How the data were processed

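The log2 values of 35556 probe sets on 6 arrays were deposited by the authors as RMA output, according to the submitters' processing notes, with no RMA version or genome build given in the sources used here. RMA aligns the arrays' distributions, and sorted values departed from their common mean by up to 0.233. Gene names came from GEO's platform annotation, parts of which may be outdated: 21789 probe sets carried 1 symbol, 1621 several and 12146 were not listed. Symbols were updated through the RefSeq gene table of GRCm38.p6 for 21698 of them. A gene with several probe sets was represented by the one with the highest mean.

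A single limma model (version 3.58.1, R version 4.3.3; lmFit, then eBayes) held all 6 arrays with a mean for each group (two-sided tests, 3 residual and 5.62 prior degrees of freedom), with Benjamini-Hochberg adjustment over 11147 genes. The fit was tested on simulated data. The number of arrays limits the precision. The receptors, the gene lists and the tests were chosen with earlier results of these data known. Named beside the receptors were up to 4 genes of each list with the smallest adjusted p for IL-12 over IL-2, and the 5 genes most correlated with Klrg1 and with Klrd1, leaving out predicted genes. When an array was left out, the same genes were tested, and the spread came from the groups that still had 2 arrays. Alternatives for the named genes that are not among the 8 were added after seeing the data, as was the natural killer list without Gzma. The labels state no pairs, so the replicate numbers were not taken as pairs. Over all tested genes, replicate differences correlated at 0.153 for IL-12 with IL-2, 0.015 for IL-2 with naive and -0.022 for IL-12 with naive. These correlations cannot show whether the receptors share a replicate effect. All 8 receptors read higher on replicate 1 in naive and in IL-2 cells. Some listed genes were not analysed here.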

Additional observations from a re-analysis of the deposited data

How the results depend on the processing

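Calls of Klrg1, Klrb1f and Klrk1 that passed held under each alternative in which the gene was tested, as did those of Klrd1 between IL-12 and the other groups. Except without a filter, Klrg1 was tested only through its IL-12 arrays, also when 1 of these was left out. For Klrg1 the held calls are therefore a description and no support. With a filter at the 75th percentile only Klrd1, Klrc1 and Klrb1f of the 8 receptors could be tested, Klrc1 through its IL-2 arrays alone and Klrb1f through its IL-12 arrays alone. Their counts of 3 of 3 for IL-2 against naive (54.5% of all genes tested there) and 2 of 3 for IL-12 against naive cells (68.2%) are therefore no support. Signs turned for differences that had not passed: Klrk1 between IL-12 and IL-2 (0.023 with quantile normalization; -0.20 to 0.12 with 1 array left out), Klrc2 between IL-2 and naive (-0.019 to 0.63 with 1 array left out) and between IL-12 and naive (-0.53 to 0.12), Klrc1 between IL-12 and naive (-0.11 to 0.29), and, between IL-12 and IL-2, Cd69 (-0.81 to 0.31), Sox13 (-0.021 to 0.030) and Foxp3 (-0.16 to 0.069). Between IL-12 and IL-2 cells 2321 genes passed, 3533 with only the compared groups fitted, and 737 to 3533 with 1 array left out (737 and 954 without an IL-2 array, 1031 and 1219 without an IL-12 array, and 3533 without either naive array, which is the same fit as that of the compared groups alone). A group left with 1 array is assumed to vary like the others. Between IL-2 and naive cells 5095 passed, and 3341 to 5786 with 1 array left out (3341 without IL-2 replicate 1). With the replicate block 2414, 5128 and 6471 genes passed for IL-12 against IL-2, IL-2 against naive and IL-12 against naive (6454 without it), and 5, 5 and 4 receptors, Klrc2 joining between IL-12 and IL-2 (adjusted p = 0.0423). Array medians were 0.117 lower in IL-12 and 0.099 lower in IL-2 than in naive cells; centring them turned the share of higher calls between IL-2 and naive cells to 67.5%, beside 56.4%. Readings near 5 limit what Klrb1c, Klre1 and, in IL-2 cells, Klrg1 can show. The Y-linked range rests on 3 genes, and levels of different genes cannot be set against each other. Higher readings, such as Klrg1 in naive cells (6.26 and 6.18) and Klrc2, are therefore not shown to be clear of signal without a target.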

Other observations

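A pair of genes from the natural killer marker list moved in opposite directions between IL-12 and IL-2 cells. Gzma, which encodes granzyme A, gave values of 12.35 and 12.60 with IL-12, 10.48 and 9.57 on the IL-2 arrays, and 8.74 and 7.23 on the naive arrays. It was 2.44 ± 0.44 higher on the log2 scale in IL-12 than in IL-2 cells (limma adjusted p = 0.00587; 0.0578 without IL-2 replicate 2) and 4.49 ± 0.44 higher than in naive cells (limma adjusted p = 4e-05). Itgb3, an integrin beta chain, gave values of 7.95 and 7.91 with IL-12, 9.52 and 9.48 on the IL-2 arrays, and 8.72 and 8.73 on the naive arrays. It was lower in IL-12 than in IL-2 cells by 1.57 (log2 fold change -1.57, limma adjusted p = 2.57e-05), in the order of groups seen for Klrd1.

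The 2 naive arrays differed in the receptors. All 8 read higher on naive replicate 1 than on naive replicate 2, with a median difference of 0.33, whereas 39.1% of all tested genes did, with a median difference of -0.066. On the IL-2 arrays all 8 also read higher on replicate 1, by a median of 0.08, beside 48.5% of all tested genes. On the IL-12 arrays 5 of 8 did, beside 45.4%. The cause was not tested.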
